A study of Mus musculus with 12 samples.

Results

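The classical cadherins and the non-clustered protocadherins are described here through the non-CG methylation of their gene bodies in mouse cortex. Members were chosen by a rule on the symbol: Cdh followed by a number, without Cdh5, or Pcdh followed by a number, with or without an x. The rule was set with earlier results of these data known. A member also needed at least 500 non-CG cytosine calls in each of 12 libraries. All 34 genes with such symbols met that minimum, out of 19826 genes that met it among 23882 genes with a symbol. By structure, 5 are type I cadherins (Cdh1, Cdh2, Cdh3, Cdh4 and Cdh15) and 12 are type II cadherins (Cdh6, Cdh7, Cdh8, Cdh9, Cdh10, Cdh11, Cdh12, Cdh18, Cdh19, Cdh20, Cdh22 and Cdh24). A further 5 are more distant cadherins (Cdh13, Cdh16, Cdh17, Cdh23 and Cdh26), 4 are delta-1 protocadherins (Pcdh1, Pcdh7, Pcdh9 and Pcdh11x), 5 are delta-2 protocadherins (Pcdh8, Pcdh10, Pcdh17, Pcdh18 and Pcdh19), and Pcdh12, Pcdh15 and Pcdh20 were kept as a group of 3.

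Cadherins are calcium-dependent adhesion proteins whose outer repeats bind their like on the neighbouring cell, and the classical ones hold catenins on the inner side of the membrane. In cortex they sort cells into layers and shape synapses, and several non-clustered protocadherins act in axon growth and synapse turnover. Non-CG methylation is laid down mainly in maturing neurons by the enzyme DNMT3A and covers whole gene bodies; the microRNA miR-29 is known to target the Dnmt3a transcript.

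All groups were C57BL/6 mice, and cortical DNA was bisulfite sequenced. At postnatal day 40 (P40) there were 4 wild-type (WT) libraries and 4 with the genotype miR29 KO. At 4 months there were 2 WT libraries and 2 with the genotype Dnmt3a mi5, whose titles read DNMT3AmiR29MUT. The labels do not say which miR-29 genes were removed or in which cells, how the Dnmt3a mi5 allele was made, or the sex of the animals. Nor do they say that the libraries of a group came from separate animals, so the spread behind each p-value is that between these libraries and may be technical. DNA libraries hold no expression, so the tissue could not be checked by expressed markers.

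Libraries held 399563492 to 474003465 calls over all genes at 4 months and 605997533 to 732985426 at P40. Over the 12 libraries a member had between 23595 calls in all (Pcdh8) and 7313375 (Cdh13), and the thinnest value rests on 1016 calls. The 4 miR-29 genes together held 121 to 244 calls in WT at P40 but 6 to 69 in miR29 KO (exact permutation test, two-sided, p = 0.0286, the smallest that 4 against 4 can give). The Dnmt3a mi5 libraries held 106 to 129 calls there and their WT libraries 151 to 200 (exact permutation p = 0.333, the smallest for 2 against 2). In each of the 4 groups 1 library had far fewer calls on Y-linked genes than the others: WT replicate 2 and miR29 KO replicate 3 at P40, WT replicate 2 and Dnmt3a mi5 replicate 1 at 4 months. These 4 held 413 to 1353 such calls and the other 8 held 19079 to 31279, which bears on the 2 X-linked members below. With such a gap, the libraries of a group did not all come from 1 animal.

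The mature miR-29 strands are shown because both mutants bear on this microRNA. They come from RefSeq (GRCm38.p6), with the seed, bases 2 to 8, in capitals, and all share that seed.

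mmu-miR-29a-3p: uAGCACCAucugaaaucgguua
mmu-miR-29b-3p: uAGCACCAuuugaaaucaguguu
mmu-miR-29c-3p: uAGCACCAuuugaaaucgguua

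RefSeq promoter windows were matched to 22 of the 34 members by symbol. For each, the 250 bases before the annotated start were searched for CG, which reads the same on both strands. The members' windows held 0 (Cdh26) to 30 (Cdh22) CG, with a median of 9 against 6 over all 32851 windows, of which 92.1% held at least 1. Cdh7 and Pcdh9, with several windows, were counted by their CG-richest, here and below, while the 6 is over every window. The windows of Cdh10 and Pcdh10 are shown because these genes, type II and delta-2, had close WT methylation and unlike CG content, and that of Cdh22 because it is the CG-richest. In GRCm38.p6 they lie at chr15:18820079-18820328 (Cdh10, plus strand), chr3:45378148-45378397 (Pcdh10, plus strand) and chr2:165234738-165234987 (Cdh22, minus strand). Each is written 5′ to 3′ along its gene, with CG in capitals.

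Cdh10: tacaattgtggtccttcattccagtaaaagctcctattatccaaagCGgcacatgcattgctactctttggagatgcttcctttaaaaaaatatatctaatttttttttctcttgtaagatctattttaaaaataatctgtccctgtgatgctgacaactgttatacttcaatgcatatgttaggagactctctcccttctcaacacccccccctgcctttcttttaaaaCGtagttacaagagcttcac
Pcdh10: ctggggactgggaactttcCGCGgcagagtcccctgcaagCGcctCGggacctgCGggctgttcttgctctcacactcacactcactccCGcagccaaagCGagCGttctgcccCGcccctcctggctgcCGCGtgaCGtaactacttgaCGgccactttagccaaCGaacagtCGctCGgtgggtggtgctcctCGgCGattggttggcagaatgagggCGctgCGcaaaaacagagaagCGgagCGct
Cdh22: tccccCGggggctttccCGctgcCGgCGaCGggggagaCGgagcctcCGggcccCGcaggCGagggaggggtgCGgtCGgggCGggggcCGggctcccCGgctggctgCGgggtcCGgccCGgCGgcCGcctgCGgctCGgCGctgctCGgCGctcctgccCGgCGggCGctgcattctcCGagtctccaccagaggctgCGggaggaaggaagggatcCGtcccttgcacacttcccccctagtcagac

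The Cdh10 window held 2 CG, a number that 81.2% of all windows reach. Pcdh10 held 22, reached by 14.8%, and Cdh22 held 30, reached by 5.94%. Across the 22 members the CG count and the WT level at P40 had r = 0.15 and Spearman's rho = -0.0028, as a description over genes that share libraries.

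In WT cortex at P40 the methylation level, methylated over total non-CG calls, ran from a mean of 0.711% (Pcdh1) to 2.99% (Cdh4). Cdh4, the retinal cadherin, had 2.76%, 3.36%, 3.09% and 2.74% in WT replicates 1 to 4, the highest level of the 34 in every WT library. Its mean of 2.99% ± 0.295 (SD, n = 4) was above that of 98.4% of all genes tested. Cdh22, a type II cadherin of brain, followed with 2.34%, 2.75%, 2.47% and 2.43%, and Cdh1, the epithelial cadherin, with 2.22%, 2.46%, 2.49% and 2.08%. The values of Cdh22 and Cdh1 overlapped, and no value of Cdh22 reached the lowest of Cdh4 except that of replicate 2.

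At the low end, Pcdh1 had 0.920%, 0.731%, 0.656% and 0.539%. Cdh11, a cadherin of mesenchymal cells and bone, had 0.846%, 0.885%, 0.796% and 0.890%. Pcdh8, an activity-regulated protocadherin also called arcadlin, had 0.775%, 1.58%, 1.10% and 1.01%. The ranges of these 3 genes overlapped, and Pcdh1 lay above only 22.4% of all genes. The Pcdh8 values rest on 1991 to 2596 calls each, so their 95% Wilson intervals, which cover counting error only, ran from 0.485% to 1.24% in replicate 1 and from 1.17% to 2.14% in replicate 2.

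The order of the members was much the same at both ages: WT levels at P40 and at 4 months had r = 0.88 and rho = 0.84 over the 34 genes, as a description. At 4 months Cdh4 again led with 2.80% and 2.84%, and Pcdh1 was again lowest with 0.837% and 0.829%. The median level of the members in a library averaged 1.72% ± 0.202 (SD, n = 4) in WT at P40 and 1.70% ± 0.0279 (SD, n = 2) at 4 months, and that of all genes tested 1.31% and 1.22%. Type I cadherins had a median of 2.11% in WT at P40, the more distant cadherins 2.25%, type II cadherins 1.57%, delta-1 protocadherins 1.43% and delta-2 protocadherins 1.82%.

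**Figure D1:**
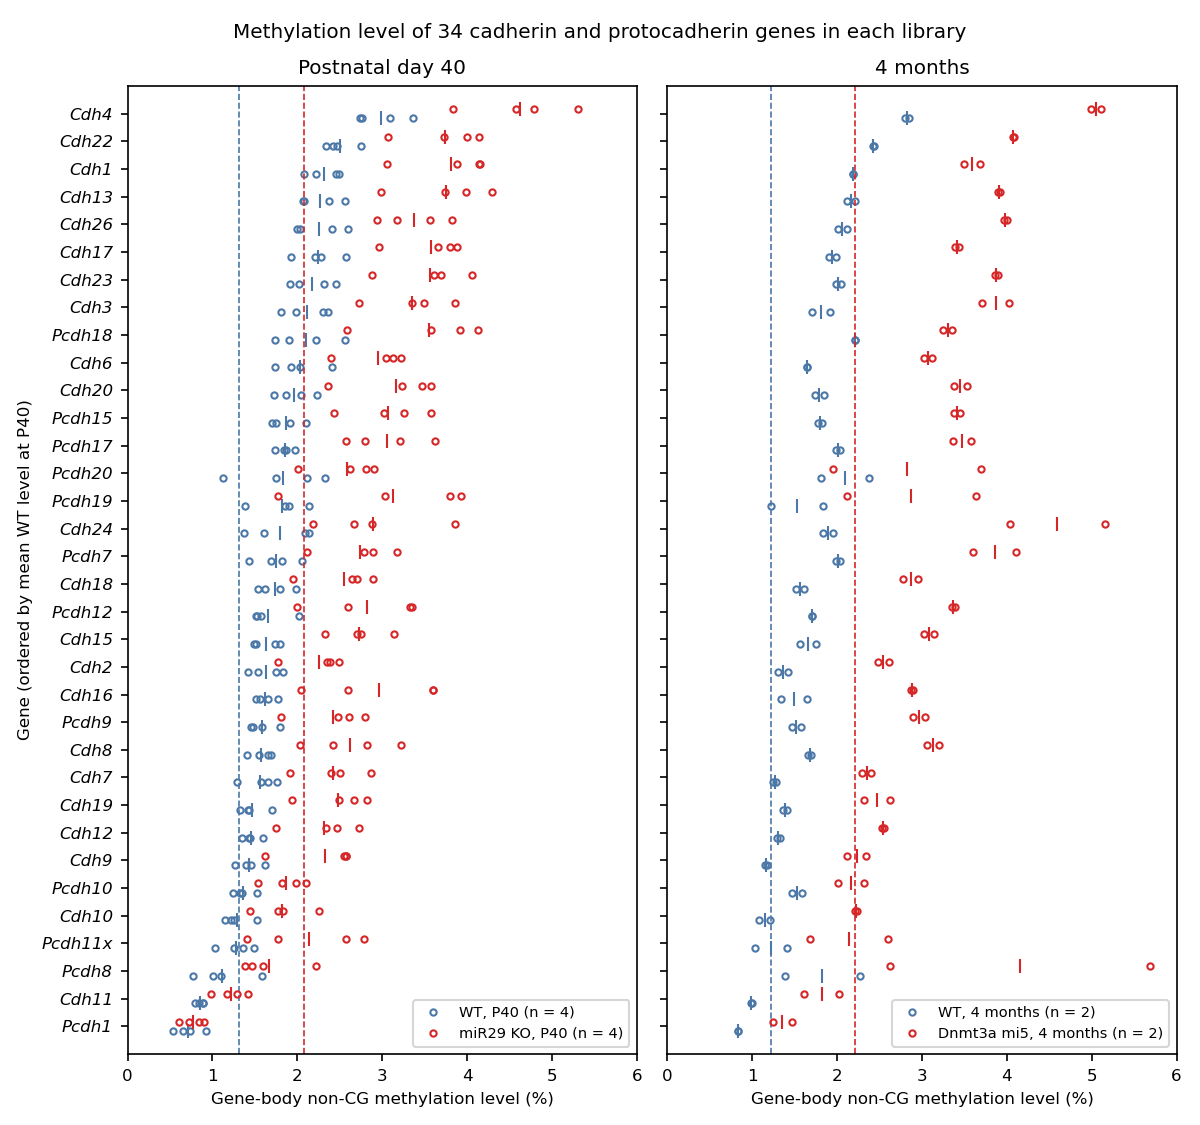
Gene-body non-CG methylation level (percent, horizontal axis) of the 34 genes in each library at P40 (left) and 4 months (right). Open circles are libraries, ticks are group means, and dashed lines are the group's mean of the library medians over all genes tested (1.31% and 2.07% at P40, 1.22% and 2.21% at 4 months); mutant circles lie right of WT circles without overlap for 23 genes at P40 and 33 at 4 months.

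Against WT, 32 of the 34 members rose in miR29 KO cortex at P40 and none fell (adjusted p under 0.05, quasi-binomial model with Benjamini-Hochberg adjustment over all genes). Pcdh1 and Pcdh8 did not pass. Among all genes tested 76.5% rose and 0.0454% fell, so the members' share lies above that background. The share depends on depth: of genes with at least 20000 calls in every library 96.4% rose, and so did 24 of the 24 members of that depth, against 8 of the 10 thinner members. The median log2 odds ratio was 0.70 for the members and 0.65 for all genes, and libraries did not overlap for 23 of 34 members and 57.1% of all genes. Bulk DNA cannot tell a change within cells from a change in the mix of cells.

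All 5 type I cadherins rose. Cdh1 had 4.14%, 4.16%, 3.88% and 3.06% in miR29 KO replicates 1 to 4, all above its WT libraries, with the largest log2 odds ratio of the group, 0.75 ± 0.11 (SE, adjusted p = 5.7e-05). Cdh2, the neural cadherin found at synapses, had the smallest. It went from 1.54%, 1.83%, 1.75% and 1.42% in WT to 2.50%, 2.35%, 2.39% and 1.77% in miR29 KO. Its replicate 4 of miR29 KO lay among the WT values, and its log2 odds ratio was 0.48 ± 0.13 (adjusted p = 0.0022). Cdh4, already the highest, reached 5.30%, 4.79%, 4.58% and 3.84%, a mean 1.55 times that of WT. Cdh3, the placental cadherin, and Cdh15, the muscle cadherin, had log2 odds ratios of 0.70 and 0.75.

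All 12 type II cadherins rose, with log2 odds ratios from 0.52 to 0.78. Cdh19, a cadherin of Schwann cell precursors, had the largest: 1.33%, 1.70%, 1.43% and 1.42% in WT and 2.82%, 2.66%, 2.49% and 1.93% in miR29 KO, with no overlap. Cdh10 had the smallest, with 1.25%, 1.53%, 1.22% and 1.15% in WT. In miR29 KO it had 2.26%, 1.83%, 1.77% and 1.44%, so that replicate 4 fell within the WT range (log2 odds ratio 0.52 ± 0.15, adjusted p = 0.0042). Cdh11, lowest of the type II genes, reached 1.42%, 1.29%, 1.18% and 0.988%. Its groups did not overlap (0.52 ± 0.16, adjusted p = 0.0068). Cdh22 reached 4.14%, 4.00%, 3.73% and 3.07%, a mean 1.50 times that of WT. The others had log2 odds ratios of 0.56 (Cdh6), 0.65 (Cdh7), 0.76 (Cdh8), 0.73 (Cdh9), 0.70 (Cdh12), 0.58 (Cdh18), 0.72 (Cdh20) and 0.70 (Cdh24), so that most lay near the median of all genes.

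The 5 more distant cadherins rose, each without overlap. Cdh16, a kidney cadherin, had the largest log2 odds ratio of all 34 members. Its levels were 1.56%, 1.65%, 1.77% and 1.51% in WT and 3.60%, 3.60%, 2.59% and 2.05% in miR29 KO, a log2 odds ratio of 0.91 ± 0.16 (adjusted p = 1.0e-04). Cdh26 had the smallest of this group, from 2.03%, 2.60%, 2.41% and 2.0% to 3.82%, 3.56%, 3.17% and 2.94% (0.60 ± 0.11). Between them lay Cdh13, the membrane-anchored T-cadherin without a cytoplasmic tail, Cdh17, the liver and intestine cadherin, and Cdh23, a part of the tip link of inner-ear hair cells, with log2 odds ratios of 0.76, 0.69 and 0.74.

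Of the delta-1 protocadherins, 3 of 4 rose. Pcdh1 did not pass: its miR29 KO values of 0.838%, 0.723%, 0.904% and 0.610% lay within its WT range, and its log2 odds ratio was 0.10 ± 0.22 (adjusted p = 0.69). The 95% interval of that value ran from -0.37 to 0.57 and thus ends below the median of all genes. Pcdh7 and Pcdh9 rose by log2 odds ratios of 0.67 and 0.64. Pcdh11x, the X-linked member of this group, had the largest estimate, 0.71 ± 0.23 (adjusted p = 0.0093), with overlapping libraries.

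Of the delta-2 protocadherins, 4 of 5 rose. Pcdh18 had the largest log2 odds ratio, from 2.22%, 2.56%, 1.73% and 1.90% to 3.92%, 4.13%, 3.58% and 2.59% (0.79 ± 0.15, adjusted p = 1.3e-04). Its groups did not overlap. Pcdh10, also called OL-protocadherin, had the smallest, from 1.25%, 1.52%, 1.33% and 1.34% to 2.11%, 1.99%, 1.83% and 1.53% (0.47 ± 0.14, adjusted p = 0.0048). Its lowest miR29 KO library lay just above its highest WT library. Pcdh17, a presynaptic protocadherin, rose by 0.75 and Pcdh19, a gene mutated in an epilepsy of females, by 0.75 ± 0.29 (adjusted p = 0.031). Pcdh8 had 1.47%, 1.59%, 2.23% and 1.38% in miR29 KO, overlapping WT, and did not pass (0.55 ± 0.30, adjusted p = 0.10). It passed without WT replicate 2 (0.80, adjusted p = 0.040), its highest WT library.

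Pcdh12, a protocadherin of vascular endothelium, rose from 1.57%, 2.02%, 1.51% and 1.53% to 3.35%, 3.32%, 2.60% and 2.0% (0.81 ± 0.16). Pcdh15, the partner of Cdh23 in the tip link, rose by 0.75. Pcdh20 went from 1.75%, 2.12%, 2.33% and 1.13% to 2.90%, 2.81%, 2.62% and 2.0%, with overlap. Its call was near the threshold (0.50 ± 0.22, adjusted p = 0.043) and was lost when any 1 of 5 P40 libraries was left out: WT replicate 1 or 4, or miR29 KO replicate 1, 2 or 3 (adjusted p 0.068 to 0.17). With limma on log2(percent + 0.1) its adjusted p was 0.056.

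Levels within the P40 groups moved together over the members. WT replicate 2 was the highest WT library for 27 of the 34 genes, miR29 KO replicate 1 the highest miR29 KO library for 28 and miR29 KO replicate 4 the lowest for 32. The median over all genes followed the same order within miR29 KO, 2.39% in replicate 1 and 1.63% in replicate 4. Leaving out any 1 library left 30 to 32 members called at P40, beside 13863 to 16003 of all 19826 genes.

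At 4 months, 29 of the 34 members rose in Dnmt3a mi5 cortex and none fell, against 58.8% of all genes that rose and 0% that fell. Among genes of at least 20000 calls in every library 91.1% rose, and 22 of 24 members of that depth did, with 7 of the 10 thinner ones. The median log2 odds ratio was 0.92 for the members and 0.83 for all genes. Mutant and WT libraries did not overlap for 33 of 34 members and 86.2% of all genes. Pcdh1, Pcdh11x, Pcdh18, Pcdh19 and Pcdh20 did not pass. With 2 libraries a group, leaving out 1 library moved the number that rose to between 22 and 31. Over all 19826 genes that number moved to between 4672 and 13328. The 22 remained without WT replicate 1, where Cdh1, Cdh9, Cdh15, Cdh16, Pcdh8, Pcdh10 and Pcdh12 lost their calls. There 4672 of all genes rose. Members that kept their call whichever library was left out came near the threshold, with a highest adjusted p of 0.045 to 0.048. By edgeR 33 members rose, with Pcdh1, Pcdh11x, Pcdh18 and Pcdh19 added (adjusted p = 0.034, 2.5e-04, 0.030 and 0.0048). Calls grew for all genes as well: 14481 of 19826 rose by edgeR and 11649 by the main model.

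All 5 type I cadherins and all 12 type II cadherins rose at 4 months. Cdh3 had the largest log2 odds ratio of the type I genes, from 1.71% and 1.91% in WT to 4.03% and 3.71% (1.13 ± 0.23, adjusted p = 0.0030). Cdh1 had the smallest, from 2.18% and 2.19% to 3.49% and 3.68% (0.74 ± 0.21). Cdh2 went from 1.42% and 1.31% to 2.48% and 2.61%, a log2 odds ratio of 0.92 ± 0.21. In these 3 genes the groups did not overlap, and of them only Cdh1 lost its call without WT replicate 1 (adjusted p = 0.059).

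Cdh24, a type II cadherin, had the largest log2 odds ratio of all members at 4 months. It went from 1.95% and 1.83% to 5.16% and 4.03%, a mean 2.43 times that of WT (1.33 ± 0.33, adjusted p = 0.0041). Cdh22 had the smallest of the type II genes, from 2.42% and 2.43% to 4.07% and 4.08% (0.77 ± 0.20). The pairs of Cdh22 agreed closely, while those of Cdh24, with 2332 to 3430 calls a library, stood further apart. Cdh11 went from 0.992% and 0.985% to 2.02% and 1.62% and lost its call without Dnmt3a mi5 replicate 1 (adjusted p = 0.051). Cdh10 went from 1.08% and 1.20% to 2.24% and 2.21%, a mean 1.94 times that of WT. The remaining type II genes had log2 odds ratios between 0.86 (Cdh19) and 0.98 (Cdh12).

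The 5 more distant cadherins rose, from Cdh17 (1.90% and 1.98% to 3.44% and 3.39%, log2 odds ratio 0.84 ± 0.20) to Cdh26 (2.01% and 2.11% to 4.00% and 3.96%, 0.98 ± 0.22). Cdh16 rose from 1.33% and 1.64% to 2.89% and 2.86% (0.97 ± 0.34, adjusted p = 0.021). That call was lost when any 1 of the 4 libraries at this age was left out (adjusted p 0.065 to 0.12), and 6912 to 9333 calls a library lie behind it.

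Among the delta-1 protocadherins, Pcdh9 rose from 1.58% and 1.46% to 3.04% and 2.89% (0.98 ± 0.20) and Pcdh7 from 2.04% and 1.98% to 4.11% and 3.60% (0.97 ± 0.19). Pcdh1, at 1.24% and 1.47% in Dnmt3a mi5, did not pass (0.72 ± 0.36, adjusted p = 0.089), although the groups did not overlap. Of the delta-2 genes, Pcdh10 had the smallest log2 odds ratio, from 1.47% and 1.58% to 2.31% and 2.01% (0.52 ± 0.19, adjusted p = 0.022). The call was lost without any 1 of 3 libraries, WT replicate 1 or 2 or Dnmt3a mi5 replicate 1. Pcdh8 had the largest, from 1.39% and 2.26% to 5.68% and 2.63% (1.19 ± 0.46, adjusted p = 0.034). The value of 5.68% is 60 methylated of 1056 calls, and the call was lost without any of the same 3 libraries; without Dnmt3a mi5 replicate 1 the log2 odds ratio was 0.56 (adjusted p = 0.37).

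Pcdh18 went from 2.22% and 2.21% to 3.35% and 3.25%, and just missed the threshold (0.59 ± 0.25, adjusted p = 0.0501) with the spread of all 12 libraries. With only the 2 groups of this age in the model its adjusted p was 0.0011, and 14551 of all 19826 genes rose there. Pcdh17 rose from 1.99% and 2.04% to 3.36% and 3.58% (0.81 ± 0.16). In the last group Pcdh12 rose from 1.70% and 1.70% to 3.39% and 3.35% (1.01 ± 0.30, adjusted p = 0.0089) and Pcdh15 by 0.95. The Pcdh12 call was lost without either WT library (adjusted p 0.059 and 0.060). Pcdh20 had 2.38% and 1.81% in WT and 3.69% and 1.95% in Dnmt3a mi5, the only member whose groups overlapped at this age (0.41 ± 0.35, adjusted p = 0.30).

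**Figure D2:**
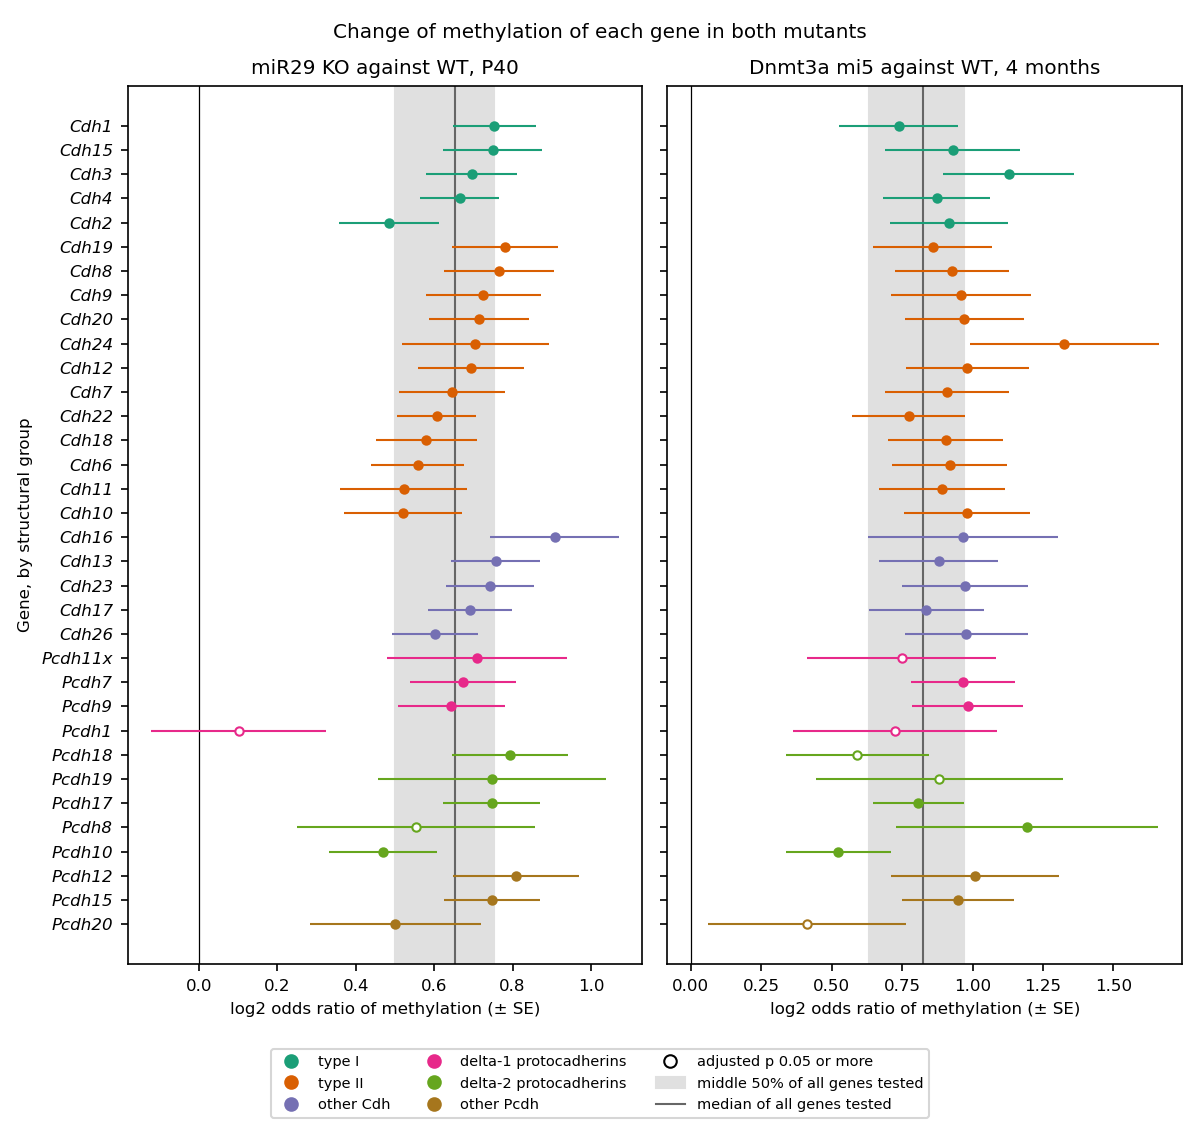
Log2 odds ratio of methylation, mutant against WT (horizontal axis, bars ± SE), of each gene at P40 (left, 4 against 4 libraries) and 4 months (right, 2 against 2), coloured by structural group. Filled points have adjusted p under 0.05 (32 and 29 genes); the grey line and band are the median (0.65 and 0.83) and middle 50% of all genes tested, within or near which most members lie.

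The difference between the mutant effects was tested in 1 model over the 12 libraries. No member differed by the quasi-binomial model at an adjusted p under 0.05, nor did any gene of the 19826 (0%), and edgeR called none either. At an unadjusted p under 0.05 there were 0 members and 1.46% of all genes. The estimates ran from -0.20 (Pcdh18) to 0.64 (Pcdh8), and the 95% interval of the Pcdh8 difference, -0.52 to 1.80, leaves room for large differences. Genotype and age change together in this contrast and cannot be told apart.

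Between WT libraries of the 2 ages no member passed, against 0.131% of all genes that rose and 0% that fell, and edgeR called no member either. At an unadjusted p under 0.05 there were 0 members and 2.33% of all genes. Cdh11 and Pcdh17 were higher in both 4-month libraries than in every P40 library (6.03% of all genes), and Cdh6, Cdh7, Cdh9 and Cdh12 were lower (12.1%). These counts, 2 and 4 of 34, lay near the shares of all genes. Cdh6 had 1.65% and 1.65% at 4 months against 1.74% to 2.41% at P40, with a log2 odds ratio of -0.31 ± 0.19. Cdh9 had 1.15% and 1.18% against 1.27% to 1.62%. The libraries of the 2 ages also differ in depth, and age and sequencing cannot be told apart.

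The common rise was then set aside by expressing each gene relative to the median gene of its library. At P40 the neural cadherin Cdh2 lay below the median change (-0.20 ± 0.04, adjusted p = 0.0090) and Cdh13 above it (0.07 ± 0.02, adjusted p = 0.047). These are 1 of 34 members each, beside 3.59% of all genes below and 1% above, and so near the background. At an unadjusted p under 0.05 in the same model there were 11 of 34 members, beside 4095 of all 19826 genes. Those 2 shares were not tested against each other. The Cdh2 call was lost without miR29 KO replicate 1 (adjusted p = 0.0502) and with limma on any scale (0.088 to 0.17), and the Cdh13 call was lost when any library but WT replicate 2 at P40 was left out (adjusted p 0.052 to 0.15). Pcdh1 and Pcdh10 had low estimates, -0.59 and -0.22, that did not pass (adjusted p = 0.071 each). At 4 months no member passed on either side (0% of all genes above, 0.0353% below), edgeR called none, and 3 members had an unadjusted p under 0.05, beside 9.09% of all genes. There Cdh2 had 0.04 ± 0.07, on the other side of the median from its P40 value, and the 2 were not tested against each other on this scale.

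Pcdh11x and Pcdh19 lie on the X chromosome, and both followed the coverage of Y-linked genes. In WT at P40 Pcdh11x had 1.25%, 1.03%, 1.50% and 1.36%, and in miR29 KO 2.79%, 2.58%, 1.41% and 1.78%. Pcdh19 had 1.86%, 1.38%, 2.14% and 1.90%, then 3.93%, 3.80%, 1.77% and 3.04%. At 4 months Pcdh11x had 1.40% and 1.03% in WT and 1.68% and 2.59% in Dnmt3a mi5, and Pcdh19 1.84%, 1.22%, 2.11% and 3.64%. In all 4 groups the library of low Y-linked coverage was the lowest for both genes. It also held more calls on them: 246158 to 357427 on Pcdh11x, where the other 8 libraries held 134407 to 197782.

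A term for that coverage was fitted across all genes, and the choice to report its coefficient was made after the data were seen. Pcdh11x was lower in the 4 libraries by a log2 odds ratio of -0.62 ± 0.14 (adjusted p = 0.012) and Pcdh19 by -0.80 ± 0.12 (adjusted p = 2.9e-04). Relative to the library median the values were -0.65 ± 0.04 and -0.84 ± 0.06. Over all genes 1.56% were lower there as measured and 2.25% relative to the median, and the first were 310 genes, all X-linked, out of 736 X-linked genes tested (42.1%). None of the 32 autosomal members was lower, and Pcdh8 was higher (0.77 ± 0.19, adjusted p = 0.034, beside 0.136% of all genes). Pcdh8 was highest in the low-coverage library of each group, on 1016 to 2596 calls.

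With that term in the model both X-linked genes rose in both mutants. At P40 the adjusted p was 4.4e-04 for Pcdh11x and 6.6e-05 for Pcdh19. At 4 months, where neither passed without the term (0.75 ± 0.34 and 0.88 ± 0.44), the log2 odds ratios were 0.80 (adjusted p = 0.0078) and 0.90 (adjusted p = 0.0030). Within libraries of other Y-linked coverage at P40, Pcdh19 averaged 3.59% in miR29 KO and 1.97% in WT (3 libraries each, 1.83 times), and Pcdh11x 2.38% and 1.37% (1.74 times). The single low-coverage libraries gave 1.28 and 1.37 times, and the median autosomal member 1.34 times in the same libraries. Without the term, the Pcdh19 call at P40 was lost when any 1 of 6 of the 8 P40 libraries was left out and the Pcdh11x call without WT replicate 2 or miR29 KO replicate 4. The number of members that rose became 33 at P40 and 32 at 4 months with the term, beside 15218 and 11790 of all 19826 genes. Without those 4 libraries 31 rose at P40 and 0 at 4 months, where 1 library then stood against 1 and 1 gene of all was called.

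**Figure D3:**
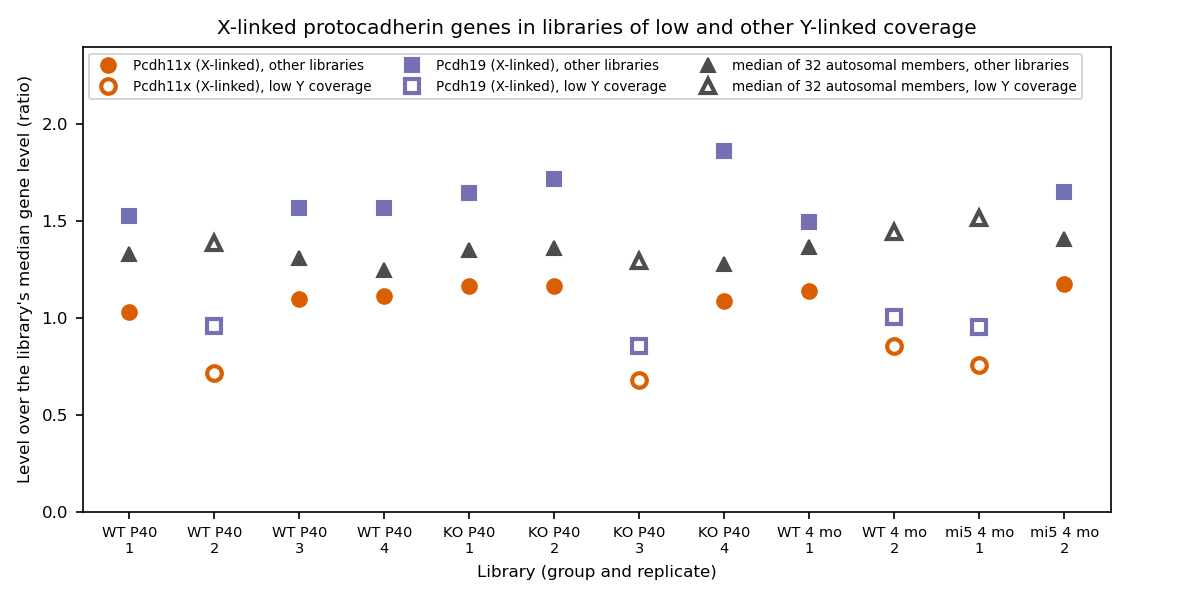
Level over the library's median gene level (ratio, vertical axis) in the 12 libraries for the X-linked Pcdh11x (circles) and Pcdh19 (squares) and the median of the 32 autosomal members (triangles). Open symbols mark the 4 libraries of low Y-linked coverage, in which both X-linked genes are lower than in every other library while the autosomal median stays between 1.25 and 1.52.

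For some members the deposited tables list several transcripts. On the transcript with the fewest calls Pcdh10 and Pcdh7 lost their call at P40, and Pcdh10 and Cdh16 at 4 months (Cdh16 with 0.66, adjusted p = 0.14). Pcdh10 has 4 with different calls. Over the one with most calls (NM_001098170, median 32707 calls a library) the level was 1.36% in WT at P40, 1.86% in miR29 KO, 1.53% in WT at 4 months and 2.16% in Dnmt3a mi5. Over NM_011043, with a median of 2383 calls, the means were 0.412% ± 0.163, 0.271% ± 0.0557 (SD, n = 4 each), 0.481% and 0.308%. The WT libraries had 0.259%, 0.551%, 0.554% and 0.284% there and the miR29 KO libraries 0.347%, 0.274%, 0.220% and 0.241%, with overlap. Neither comparison passed on it (log2 odds ratio -0.58 and -0.70, adjusted p = 0.26 and 0.41), while all other members kept a positive sign on their transcript with the fewest calls. In WT at P40 the level rose with the number of calls of the transcript: 0.412%, 1.08%, 1.22% and 1.36%.

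Pcdh7 showed a smaller step. Over NM_018764 (median 6850 calls) it had 1.29% in WT and 1.59% in miR29 KO, which did not pass (0.32, adjusted p = 0.24), and over its main transcript 1.75% and 2.74%. At 4 months the same transcript had 1.64% and 1.36% in WT and 3.59% and 2.23% in Dnmt3a mi5, without overlap. Where on the gene these transcripts lie was not analysed here, since no coordinates of the files' mm9 build were used.

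**Figure D4:**
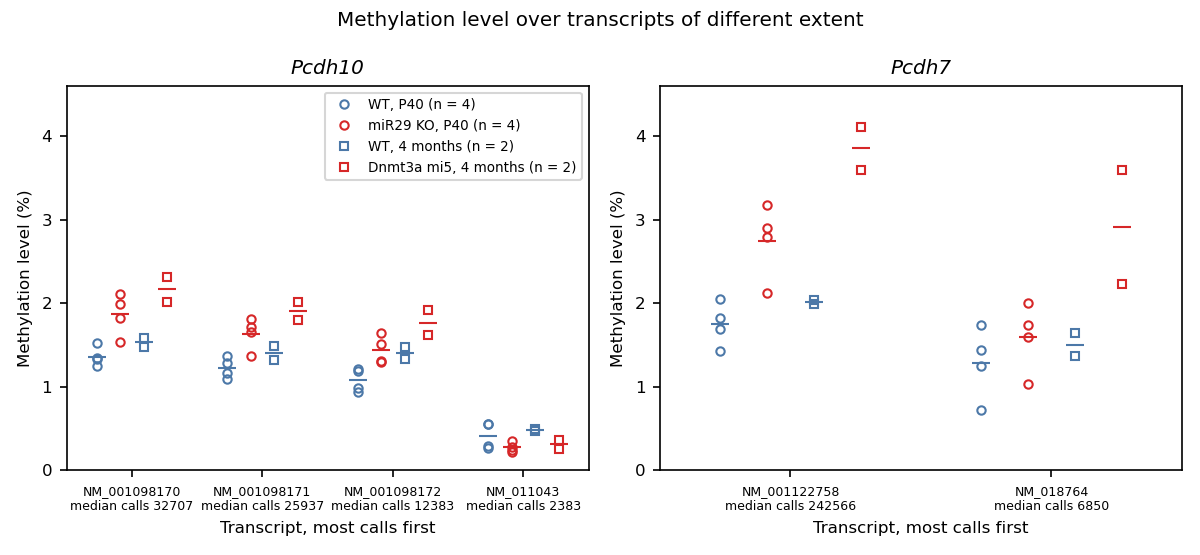
Methylation level (percent, vertical axis) over the transcripts of Pcdh10 (left) and Pcdh7 (right), ordered by calls; circles are P40 libraries, squares 4-month libraries, blue WT, red mutant, and bars the group means. Over NM_011043 of Pcdh10, which has only 1379 to 3093 calls a library, all values lie between 0.220% and 0.554%. The mutant means there lie below the WT means, but neither comparison passed.

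Several members are neighbours in the RefSeq gene order (GRCm38.p6). Cdh6, Cdh9, Cdh10 and Cdh12 follow each other on chromosome 15 with 0 protein-coding genes between, and had mean WT levels at P40 of 2.03%, 1.43%, 1.29% and 1.46%. Cdh3 and Cdh1 on chromosome 8 are adjacent too (2.11% and 2.31%), as are Cdh8 and Cdh11 (1.58% and 0.854%) and Pcdh20 and Pcdh9 on chromosome 14 (1.83% and 1.58%). Cdh18, separated from Cdh12 by 1 gene, had 1.74%, and Cdh7 and Cdh19, adjacent on chromosome 1, had 1.57% and 1.47%. Adjacent members thus did not always share a level: all 4 WT libraries of Cdh8 lay above all those of Cdh11.

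Genes of the cadherin pathway outside the family were followed by fixed lists. Of 20 adherens junction partners 19 were tested, and 19 rose at P40 and 17 at 4 months, beside 76.5% and 58.8% of all genes. Their median log2 odds ratios were 0.67 and 0.84, close to those of all genes, 0.65 and 0.83. Ctnna1, which encodes alpha-catenin, the link from cadherins to actin, went from 1.67% to 2.85% at P40 and from 1.53% to 3.07% at 4 months. Ctnnb1, encoding beta-catenin, went from 0.762% to 1.15% (0.61, adjusted p = 0.0036), and Ctnnd2, encoding the neuronal delta-catenin, lay below the median change at P40 (-0.17, adjusted p = 0.037). Among 27 other genes of the cadherin superfamily 25 were tested; 23 rose at P40 and 22 at 4 months, with medians of 0.76 and 0.81, against the same shares and medians of all genes. The desmosomal cadherin Dsg3 had the smallest p of them at P40, from 1.92% to 3.46%.

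The 56 clustered protocadherins differed in level: their median was 0.712% in WT at P40 and 0.924% in miR29 KO, where the 34 members had 1.74% and 2.78%. Of them 32 rose at P40 and 21 at 4 months (76.5% and 58.8% of all genes), with median log2 odds ratios of 0.44 and 0.66, and 11 lay below the median change at P40 (3.59% of all genes). Genes of the alpha and gamma clusters share constant exons, so their calls are not independent. Of marker genes of cortical cell types, those that rose at P40, beside 76.5% of all genes, were 5 of 5 astrocyte, 5 of 5 oligodendrocyte lineage, 4 of 4 microglial, 4 of 4 vascular, 3 of 4 inhibitory and 1 of 5 excitatory neuron genes. At 4 months the counts were 5, 4, 4, 4, 2 and 1, beside 58.8% of all genes. All 5 excitatory genes had a positive log2 odds ratio in both comparisons, beside 19008 and 19014 of all 19826 genes. Their medians were 0.33 and 0.61, beside 0.65 and 0.83 of all genes. Excitatory libraries did not overlap for 1 of 5 genes at P40 and 5 of 5 at 4 months, beside 57.1% and 86.2% of all genes. The median WT level of these lists at P40 ran from 1.16% (excitatory) to 2.37% (astrocyte), and the part of these cell types in the members' rise was not tested.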

How the data were processed

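Sonicated cortical DNA with a lambda spike-in was bisulfite sequenced, per the labels' protocols; per the submitters' processing notes, BSMAP and mm9 were used. For each RefSeq transcript the authors deposited 2 values: methylated non-CG calls, a raw count, and total calls, treated as an expected count. Between 35.7% and 62.2% of the deposited expected counts in a library are whole numbers; the rest were rounded, and the sources used here do not say how they arose. Of 36672 rows a table, 300 found no symbol in RefSeq's gene table (GRCm38.p6), and 1395 rows with repeated identifiers were left out. Each gene was represented by the transcript with most calls, and genes under 500 calls in any library were left out.

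A quasi-binomial logistic model with 1 mean per group was fitted to the 12 libraries gene by gene (numpy 2.4.6), with dispersions moderated by limma 3.58.1 (squeezeVar, trend, robust) and p-values adjusted by Benjamini-Hochberg over 19826 genes, threshold 0.05. Effects are log2 odds ratios. In the relative analysis the library median entered as an offset. Members, lists and tests were chosen with earlier results of these data known. Every member is named; values by library were given for the 3 highest and 3 lowest in WT, and for the largest and smallest effect of each structural group. Alternatives were limma on log2(percent + 0.1) or log2(percent + 0.5) or on percent, edgeR 4.0.16, other minimums of calls (none or 2000), the transcript with fewest calls, repeated identifiers summed, no moderation, a replicate block, a term for Y-linked coverage, only the 2 groups compared, and leaving out each library. On simulated data for all 19826 genes at P40 the model recovered 87% of genes raised and 74% of genes lowered 2-fold, and 4.17% of its calls were false. For 4 months these were 44%, 22% and 2.94%. In the simulation most genes were unchanged, libraries varied independently and no shift was common to all genes. In the data most genes rose and libraries moved together over genes, so these shares may not carry over. No sample column was left unused.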

Additional observations from a re-analysis of the deposited data

Results flagged for a closer look

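In 2 of 68 groups of 4 libraries (34 genes in 2 groups at P40) a single library stood apart by Dixon's ratio of its gap to the group's range, where chance gives about 1 in 20. Cdh9, a type II cadherin, had 1.62% in miR29 KO replicate 4, while the other 3 libraries lay between 2.55% and 2.58%. That library was the lowest of its group for 32 of the 34 members. Pcdh12, the endothelial protocadherin, had 2.02% in WT replicate 2, while the other WT libraries lay between 1.51% and 1.57%. That library was the highest WT library for 27 members. Both genes kept their call at P40 when any 1 library was left out.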

How the results depend on the processing

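At 4 months each group has 2 libraries, and these are shallower than those at P40. Over alternatives that keep all libraries or the 2 groups compared, 29 to 33 members rose at P40 and 27 to 33 at 4 months. None fell there. Where such alternatives tested the same 19826 genes, 14634 to 15722 of these rose at P40 and 10123 to 14591 at 4 months. Leaving out each library in turn gave 30 to 32 and 22 to 31 members. Of all 19826 genes it gave 13863 to 16003 and 4672 to 13328. Without the 4 libraries of low Y-linked coverage, chosen after seeing the data, 0 rose at 4 months, with 1 library against 1. The sign of Pcdh1 at P40 turned without WT replicate 4 (leaving out each library gave -0.025 to 0.28), and that of Pcdh20 at 4 months without Dnmt3a mi5 replicate 1 (-0.11 to 0.83) or without the 4 low-coverage libraries (-0.29). Pcdh10 turned on its transcript with fewest calls (-0.58 and -0.70). The causes were not tested. Relative to the library median at P40, the 1 member above became 0 with limma on either log2 scale, edgeR, either other minimum of calls, no moderation, the replicate block, only the 2 groups or without the 4 low-coverage libraries, and 15 with limma on percent; leaving out each library gave 0 to 1. The 1 member below became 0 with limma on log2(percent + 0.1) or no moderation, 4 with limma on percent, 3 at a minimum of 2000 calls and 2 with the Y term; leaving out each library gave 0 to 2. At 4 months limma on percent called 16 above and 1 below. Over all 19826 genes that setting called 4161 above and 5497 below at 4 months, and 4805 and 6516 at P40. It subtracts the library median in percent points, so a gene of high level that rises by the common factor moves above it. The replicate numbers gave correlations of -0.05 to 0.11 at P40 and -0.09 at 4 months, and only 1 of the 6 pairs was best with its own number, so they were not taken as pairs. With the replicate block 31 members rose at P40, Pcdh19 losing its call (adjusted p = 0.12), and 30 at 4 months, Pcdh18 gaining one (0.017). Of all 19826 genes 15224 and 12339 rose with that block.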
